A study of Mus musculus with 8 samples.

Results

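Integrin genes and the genes of the focal adhesions that integrins build were described in mouse bladder after partial obstruction of the outlet. The set held 43 of the 38926 gene symbols counted in each library. It comprised every symbol that begins as an integrin alpha or beta gene, except the hemidesmosome pair Itga6 and Itgb4, plus 14 named focal adhesion components. The symbols divided into 17 alpha subunits, 8 beta subunits, 4 genes that carry an integrin name but encode no subunit (Itgbl1, Itgb1bp1, Itgb1bp2 and Itgb3bp) and the 14 components. The 4 NeMO libraries came from bladder tissue of mice in a surgical model of partial outlet obstruction that spares the nerves, and the 4 Sham libraries from sham-operated mice. The sources used here do not give strain, sex, age, the time since the operation or the number of animals behind a library, so the p-values reflect the spread among these samples alone, which may be technical in part. Library totals ran from 29451800 to 36375313 counts in NeMO and from 27212499 to 33459048 in Sham. Batch 1 held 2 NeMO and 3 Sham libraries, and batch 2 held 2 NeMO libraries and 1 Sham library, replicate 4. The markers of the labelled tissue were present: the 9 smooth muscle markers summed to between 29630 and 54730 CPM in NeMO and between 34750 and 46660 CPM in Sham, where CPM is a gene's share of its library's counts on a scale common to all libraries. The 9 urothelial markers summed to between 6092 and 9067 CPM in NeMO and between 7250 and 9666 CPM in Sham. Of those 9 urothelial genes 8 were below 0 on the log2 fold change scale, where 48.3% of all genes tested were above 0. At an unadjusted p under 0.05 in edgeR 5 of the 9 were lower, against 9.14% of all genes tested. These were Upk1a, Upk2, Upk3a, Krt18 and Krt20. The others stood at −0.28 (Upk1b), −0.18 (Krt7), −0.08 (Krt5) and 0.08 (Trp63), so the lower values did not extend to every urothelial marker.

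Integrins are transmembrane receptors made of one alpha and one beta subunit, and the pair decides which matrix or cell-surface ligand is bound. Inside the cell, talin and kindlin bind the beta tail, and vinculin, alpha-actinin, tensin, zyxin and the complex of integrin-linked kinase, PINCH and parvin tie the receptor to actin, while focal adhesion kinase and paxillin carry signals onwards. In the bladder wall these structures anchor detrusor smooth muscle and fibroblasts to collagen, fibronectin and laminin and bear the load of filling.

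CPM values carried edgeR's TMM factors, and levels were compared between genes only after division by the length of each gene's annotated exons (CPM per kb). The laminin, collagen and fibronectin partner Itgb1 had the highest level of any subunit, with 365 ± 54.1 CPM per kb in NeMO and 295 ± 28.0 CPM per kb in Sham (mean ± SD, n = 4 each, as for all means here). Itgb1 made up 81.1 ± 1.88% of the set's beta subunit transcripts per kb in NeMO and 78.3 ± 1.67% in Sham. These shares leave out Itgb4, which stood at 22.7 ± 2.76 CPM per kb in NeMO and 21.15 ± 2.06 CPM per kb in Sham. Among the set's beta subunits Itgb5 and Itgb3, which pair with the alpha v chain, followed at 9.65 ± 1.46% and 5.91 ± 0.395% in NeMO and at 10.6 ± 0.973% and 6.19 ± 0.6% in Sham. Among alpha subunits Itga5, the fibronectin receptor chain, came first in all 8 libraries. Itga5 made up 54.3 ± 6.3% of the set's alpha subunit transcripts per kb in NeMO and 41.6 ± 8.83% in Sham. The laminin receptor chain Itga3 took 10.5 ± 1.63% in NeMO and 12.1 ± 1.13% in Sham, and Itga9, which binds tenascin and other matricellular ligands, took 8.7 ± 1.87% in NeMO and 11.5 ± 1.86% in Sham. At the other end Itgad and Itgb2l were close to the floor. The leukocyte gene Itgb2l had 2, 9, 6 and 3 reads in NeMO and 1, 3, 3 and 0 reads in Sham, was too low to be tested, and gets no fold change. The count of 0 in Sham replicate 4 allows a level of up to 0.11 CPM (3 counts), for counting error only.

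**Figure D1:**
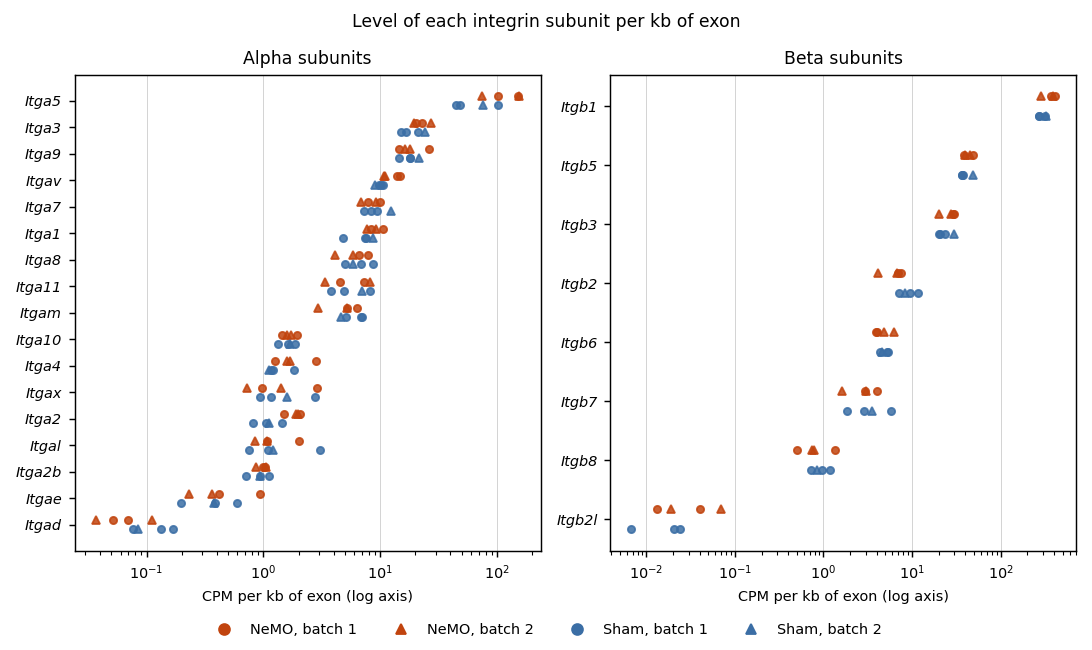
Level of each of the set's 25 integrin subunits in every library, in CPM per kb of exon on a log axis, with alpha subunits in the left panel and beta subunits in the right one. Orange points are NeMO and blue points Sham, with batch 1 as circles and batch 2 as triangles, and the Sham replicate 4 value of Itgb2l, a count of 0, is not drawn. Itga5 leads the alpha subunits and Itgb1 the beta subunits in both groups.

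None of the 42 genes of the set that passed the filter on low counts was called by edgeR's quasi-likelihood test, with p-values adjusted by Benjamini-Hochberg across the 16370 genes in the fit, of which 12 (0.0733%) were called. At an unadjusted p under 0.05 the same test gave 7 genes of the set higher and 2 lower in NeMO, against 9.38% higher and 9.14% lower among all genes tested. The 7 were Itgbl1, Itgav, Itga2, Vcl, Ptk2, Lims1 and Itgb1, and the 2 were Itgb1bp2 and Itgb2. DESeq2, run as an alternative, called 4 higher (Itgbl1, Itgav, Itga2 and Vcl) and 1 lower (Itgb1bp2), against 3.6% higher and 2.72% lower among the 15086 genes for which it gave an adjusted p. In 4 genes (9.52% of the 42, against 4.39% of all genes tested) every NeMO library lay above every Sham library. These were Itgbl1, Itgav, Itga2 and Ptk2. In Itgb1bp2 alone (2.38%, against 3.81%) every NeMO library lay below every Sham library. The fitted log2 fold change, NeMO minus Sham, was above 0 for 25 of the 42 (48.3% of all genes tested) and its median was 0.02, against −0.01 over all genes tested. By role the median was 0.06 for the 17 alpha subunits, −0.10 for the 7 tested beta subunits and 0.04 for the 14 focal adhesion components. These counts and medians carry no correction for transcript length or GC content. The median longest transcript was 4371 bases in the set and 3212 over all genes tested. With that correction edgeR gave 1.78 for Itgbl1, 0.27 for Itgav, 0.59 for Itga2, 0.35 for Vcl, 0.15 for Ptk2 and −0.58 for Itgb1bp2. Their edgeR adjusted p-values then ran from 0.0792 to 0.485.

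**Figure D2:**
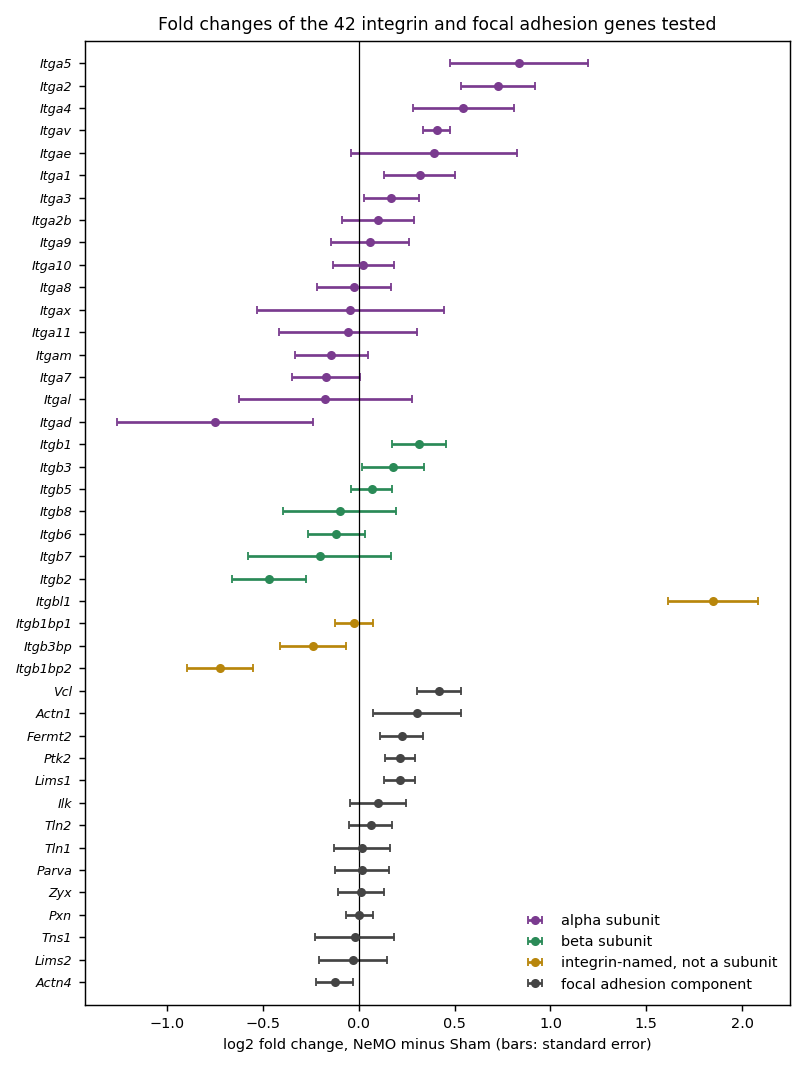
Fitted log2 fold change of each of the 42 tested genes, NeMO minus Sham, with bars for the standard error and colours for the role. Itgbl1 stands apart at 1.85, the other genes lie between −0.75 and 0.83, and none passed an adjusted p of 0.05 in edgeR.

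Itgbl1 had the largest fold change of the set. It encodes a secreted protein built of the cysteine-rich repeats found in integrin beta stalks, without the ligand-binding head, the membrane span or the tail of a subunit. The gene lies on chromosome 14 (GRCm38, positions 123659971 to 123975618, plus strand) and shares no annotated exon with another gene. Itgbl1 measured 40.4, 31.7, 38.6 and 27.3 CPM in NeMO replicates 1 to 4, against 8.45, 15.0, 6.86 and 9.57 CPM in Sham replicates 1 to 4. The lowest NeMO library thus lay above the highest Sham library, replicate 2. The log2 fold change was 1.85 (SE 0.24, a 3.60-fold higher level), and edgeR's adjusted p was 0.0512. The adjusted p stood under the threshold when NeMO replicate 1 (0.0259), Sham replicate 2 (0.016) or Sham replicate 3 (0.0491) was left out of the edgeR fit, and over it when any other library was, up to 0.253 without Sham replicate 4. The log2 fold change stayed between 1.70 and 2.07 in those fits and was 1.97 within batch 1 and 1.63 within batch 2. Summed fibroblast markers, read beside it because the tissue is a mixture, were 8152, 7248, 16850 and 10940 CPM in NeMO and 10630, 8020, 9369 and 8204 CPM in Sham. The fibroblast sums overlapped between the groups, with NeMO replicate 3 highest, where the collagen genes Col1a1 and Col1a2 gave 5092 and 7287 CPM of the sum. Of the 8 markers 6 were highest in that library and 2, Pi16 and Dpt, were lowest there. The part of fibroblast content in the Itgbl1 values was not tested. In whole tissue a change in the number of cells of a type and a change in RNA per cell cannot be told apart.

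**Figure D3:**
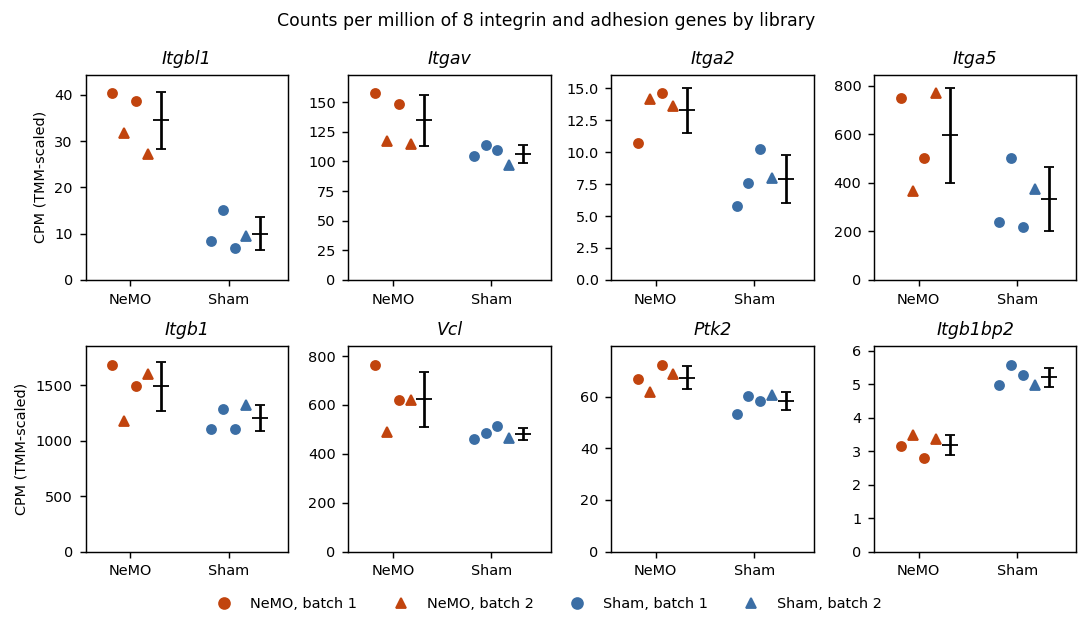
TMM-scaled CPM of 8 genes in every library, NeMO left and Sham right, with batch 1 as circles, batch 2 as triangles and black bars for the mean ± SD. Itgbl1, Itgav, Itga2 and Ptk2 do not overlap between groups and are higher in NeMO, Itgb1bp2 does not overlap and is lower, and Itga5, Itgb1 and Vcl overlap.

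The sequence before the start of 4 genes is shown because they were the genes that DESeq2 called higher. RefSeq starts on GRCm38.p6 were found for 31 of the 43 genes, among them these 4, and each run reads 5′ to 3′ along the gene's strand and ends at the start or at the first annotated exon. Capitals mark matches to the TEAD motif GGAATG, the AP-1 motif TGANTCA, the Sp1 motif GGGCGG or the CArG box of serum response factor, searched on both strands in the 250 bases before each start. The runs cover chr14:123659890-123659970 for Itgbl1, chr2:83724147-83724396 for Itgav, chr13:114932101-114932350 (minus strand) for Itga2 and chr14:20929148-20929397 for Vcl.
Itgbl1: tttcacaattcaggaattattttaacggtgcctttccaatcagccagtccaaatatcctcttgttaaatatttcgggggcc
Itgav: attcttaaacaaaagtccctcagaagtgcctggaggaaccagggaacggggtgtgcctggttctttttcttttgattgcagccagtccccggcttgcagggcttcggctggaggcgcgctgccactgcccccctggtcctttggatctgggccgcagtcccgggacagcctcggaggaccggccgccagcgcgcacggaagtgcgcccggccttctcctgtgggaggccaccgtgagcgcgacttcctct
Itga2: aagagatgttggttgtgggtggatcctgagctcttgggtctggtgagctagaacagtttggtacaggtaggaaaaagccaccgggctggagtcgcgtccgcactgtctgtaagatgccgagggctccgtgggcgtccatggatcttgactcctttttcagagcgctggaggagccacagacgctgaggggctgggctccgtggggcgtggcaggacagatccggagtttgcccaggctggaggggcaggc
Vcl: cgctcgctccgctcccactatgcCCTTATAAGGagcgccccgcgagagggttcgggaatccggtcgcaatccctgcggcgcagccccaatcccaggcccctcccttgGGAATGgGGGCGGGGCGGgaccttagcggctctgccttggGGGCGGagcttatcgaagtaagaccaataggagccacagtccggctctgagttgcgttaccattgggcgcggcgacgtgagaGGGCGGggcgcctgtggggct
The Vcl run holds 1 CArG box (227 to 218 bases before the start), 1 TEAD match (143 to 138) and 4 Sp1 matches, 2 of which share a base. The Itgav and Itga2 runs hold no match to any of the 4 motifs, and Itgbl1 has a single Sp1 match 26 to 21 bases before the start, beyond the run shown. Over the 32851 RefSeq starts a CArG box occurred in 1.47% of windows, a TEAD match in 12.6%, an AP-1 match in 6.75% and an Sp1 match in 32.7%. Over the 36 starts of the set these shares were 8.33%, 11.1%, 8.33% and 44.4%, and the 3 genes with a CArG box were Fermt2, Itgb6 and Vcl. A match of letters is not a bound site.

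Receptors for fibronectin and related ligands are built on Itgav, Itga5 and Itga8. Itgav, the alpha v chain shared by receptors of vitronectin, fibronectin and latent TGF-beta, measured 158, 117, 149 and 115 CPM in NeMO, against 104, 114, 110 and 96.6 CPM in Sham. The groups did not overlap, although NeMO replicate 4 and Sham replicate 2 lay within 1 CPM of each other. Its log2 fold change was 0.41 (SE 0.07, edgeR adjusted p = 0.0691), with 0.49 in batch 1 and 0.27 in batch 2. The edgeR adjusted p was 0.0427 without NeMO replicate 1. It stood between 0.0672 and 0.231 when any other library was left out, and was 0.253 without the batch term. With transcript length and GC content corrected for, the Itgav value was 0.27 (edgeR adjusted p = 0.249). Itgav lies on chromosome 2 (positions 83724397 to 83806916, plus strand), and 634 of its exon bases are shared with Gm13684 on the opposite strand.

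Itga5, on chromosome 15 (positions 103344286 to 103366763, minus strand), measured 748, 364, 503 and 769 CPM in NeMO, against 240, 503, 220 and 372 CPM in Sham. NeMO replicates 1 and 4 lay above all Sham libraries, NeMO replicate 3 was level with Sham replicate 2, and NeMO replicate 2 was below Sham replicates 2 and 4. The log2 fold change of 0.83 (SE 0.36) did not pass (edgeR adjusted p = 0.277, and 0.234 in DESeq2). Itgb1, its partner, measured 1684, 1178, 1498 and 1599 CPM in NeMO, against 1108, 1284, 1103 and 1320 CPM in Sham. NeMO replicate 2 was the one NeMO library that overlapped with Sham, and the log2 fold change was 0.31 (SE 0.14, edgeR adjusted p = 0.269). Fibronectin itself, Fn1, measured 4668, 2146, 4323 and 4780 CPM in NeMO, against 1435, 1569, 1321 and 1608 CPM in Sham, with a log2 fold change of 1.45 (SE 0.24, edgeR adjusted p = 0.0691). NeMO replicate 2 was thus the lowest NeMO library for ligand and for both receptor chains, but lay above Sham only for the ligand.

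The partners of alpha v were less far from 0. Itgb3 measured 157 ± 25.7 CPM in NeMO and 139 ± 26.0 CPM in Sham, with a log2 fold change of 0.18 (SE 0.16), and Itgb5 152 ± 16.1 CPM in NeMO and 142 ± 21.4 CPM in Sham with 0.07 (SE 0.11). Itgb6 and Itgb8, whose alpha v dimers release TGF-beta from its latent complex, stood at −0.12 (SE 0.15) and −0.10 (SE 0.29). Itga8, which binds nephronectin and fibronectin and is abundant in mesenchyme and smooth muscle, was at −0.02 (SE 0.19), and Itga9 was at 0.06 (SE 0.20). None of these passed the edgeR test, and the signs of Itgb3, Itgb5, Itgb6, Itga8 and Itga9 differed between batches.

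Among collagen receptor chains, Itga2 was the one whose groups did not overlap. It measured 10.7, 14.1, 14.6 and 13.6 CPM in NeMO, against 5.77, 7.55, 10.3 and 7.98 CPM in Sham. The groups did not overlap, with NeMO replicate 1 and Sham replicate 3 closest. The log2 fold change was 0.73 (SE 0.19, edgeR adjusted p = 0.121), 0.69 within batch 1, 0.81 within batch 2 and between 0.61 and 0.88 when any 1 library was left out. Itga2 lies on chromosome 13 (positions 114833081 to 114932100, minus strand). The 7 markers of mast cells, which are known to carry alpha 2, summed to 81.4, 43.7, 47.1 and 75.6 CPM in NeMO and to 46.2, 34.1, 49.8 and 47.5 CPM in Sham. Of the 6 mast cell markers tested 5 (83.3%, against 4.39% of all genes tested) lay higher in every NeMO library than in every Sham library. The other, Kit, averaged 19.97 CPM in NeMO and 33.2 CPM in Sham (log2 fold change −0.74, SE 0.35), the largest share of the Sham sum. Within NeMO, replicate 1 had the lowest Itga2 value (10.7 CPM) and the highest mast cell sum (81.4 CPM). NeMO replicate 2, with the lowest sum (43.7 CPM), had 14.1 CPM of Itga2. The part of mast cell content, or of any other cell type, in the Itga2 values was not tested. The second collagen chain Itga1 measured 195, 144, 156 and 172 CPM in NeMO, against 88.8, 142, 137 and 162 CPM in Sham, and its log2 fold change of 0.32 (SE 0.18) was 0.52 in batch 1, −0.03 in batch 2, 0.17 without NeMO replicate 1 and 0.18 without Sham replicate 1. The groups overlapped for Itga1, with Sham replicate 1 low. Itga11, a fibroblast receptor for fibrillar collagen, measured 29.9 ± 11.5 CPM in NeMO and 30.6 ± 10.1 CPM in Sham, and Itga10, known from cartilage, 8.64 ± 1.07 CPM in NeMO and 8.49 ± 1.16 CPM in Sham. Their log2 fold changes were −0.06 (SE 0.36) and 0.02 (SE 0.16).

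The laminin receptor chains of the set overlapped between the groups. Itga3 measured 128 ± 18.95 CPM in NeMO and 110 ± 23.4 CPM in Sham (log2 fold change 0.17, SE 0.14), and Itga7, the laminin receptor of muscle, 68.4 ± 11.4 CPM in NeMO and 75.8 ± 18.2 CPM in Sham (−0.17, SE 0.18). The hemidesmosome chain Itga6, outside the set by definition, measured 129 ± 19.1 CPM in NeMO and 99.5 ± 3.78 CPM in Sham without overlap (0.39, SE 0.10, edgeR adjusted p = 0.121, and 0.23 without NeMO replicate 3). Its partner Itgb4 measured 160 ± 19.3 CPM in NeMO and 148 ± 14.5 CPM in Sham (0.08, SE 0.11).

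Integrins of blood cells overlapped between the groups in every chain tested. This role was taken from textbook use after the values had been seen, and covers Itgal, Itgam, Itgax and Itgad with their partner Itgb2, Itga4 and Itgae with their partner Itgb7, and the untested Itgb2l. Of the 8 tested, 2 had a log2 fold change above 0 and 6 below 0, with a median of −0.16. Itgb2, the common chain of leukocyte adhesion receptors, measured 21.1, 12.5, 22.7 and 20.9 CPM in NeMO, against 35.5, 21.95, 29.2 and 25.3 CPM in Sham. The ranges overlapped by NeMO replicate 3 and Sham replicate 2 alone, and the log2 fold change was −0.47 (SE 0.19, edgeR adjusted p = 0.244). Itga4, which pairs with beta 1 or beta 7 and also occurs outside blood cells, measured 17.5, 22.4, 39.6 and 23.4 CPM in NeMO, against 25.7, 16.2, 16.9 and 15.7 CPM in Sham. NeMO replicate 3 was the highest and the log2 fold change of 0.54 (SE 0.26) was 0.17 without it. Itgax, a chain of dendritic cells and macrophages, was high in NeMO replicate 3 (13.9 CPM) and Sham replicate 1 (13.3 CPM) and between 3.51 and 7.63 CPM in the other libraries.

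The summed level of the 8 leukocyte chains was 87.1, 64.4, 137 and 95.0 CPM in NeMO and 149, 80.6, 103 and 91.8 CPM in Sham. The 7 general leukocyte markers, such as Ptprc, summed to 129, 83.4, 212 and 142 CPM in NeMO and to 254, 121, 158 and 140 CPM in Sham. The libraries stood in the same order on both sums, with Sham replicate 1 and NeMO replicate 3 highest and NeMO replicate 2 lowest. None of the 7 markers was at 0 in every library, and their part in the integrin values was not tested. The platelet chain Itga2b measured 5.36 ± 0.433 CPM in NeMO and 5.03 ± 0.902 CPM in Sham (log2 fold change 0.10, SE 0.19). Platelet and megakaryocyte markers summed to between 11.7 and 21.5 CPM in NeMO and between 19.97 and 28.8 CPM in Sham, and only 3 of the 7 were high enough to be tested. Most of the sum was Pf4, with 13.5 ± 4.77 CPM in NeMO and 23.4 ± 4.06 CPM in Sham (−0.76, SE 0.26). Of the other tested markers Ppbp stood at −0.84 (SE 0.53) and Gp1bb at 0.61 (SE 0.28).

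**Figure D4:**
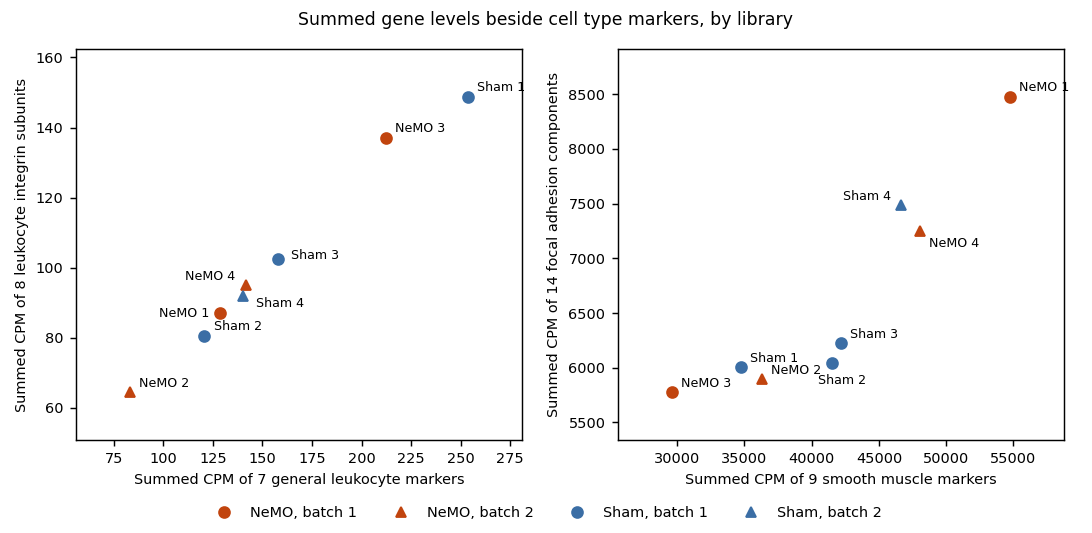
Summed CPM of 8 leukocyte integrin subunits against 7 general leukocyte markers (left) and of 14 focal adhesion components against 9 smooth muscle markers (right), 1 point per library. Orange is NeMO and blue Sham, with batch 1 as circles and batch 2 as triangles, and in both panels libraries of the 2 groups are intermingled.

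Focal adhesion components had fold changes from −0.13 to 0.42 on the log2 scale with a median of 0.04, and 11 of 14 were above 0 (48.3% of all genes tested). At an unadjusted p under 0.05 edgeR had 3 higher (21.4%, against 9.38% of all genes tested) and 0 lower (against 9.14%). Vinculin, Vcl, which reinforces the link from talin to actin under load, measured 764, 488, 621 and 622 CPM in NeMO, against 459, 487, 512 and 465 CPM in Sham. NeMO replicate 2 overlapped with Sham, and the other 3 NeMO libraries lay above it. The log2 fold change was 0.42 (SE 0.12, edgeR adjusted p = 0.131, DESeq2 adjusted p = 0.0164), 0.31 without NeMO replicate 1 and 0.51 without Sham replicate 4. Vcl lies on chromosome 14 (positions 20929398 to 21033676, plus strand), and 2090 of its exon bases are shared with Ap3m1 on the opposite strand, so its level is uncertain where strand was not used in counting. Focal adhesion kinase, Ptk2, on chromosome 15 (positions 73205102 to 73423280, minus strand), measured 66.7, 61.6, 72.3 and 68.6 CPM in NeMO, against 53.2, 60.3, 58.5 and 60.8 CPM in Sham. The groups were separated by less than 1 CPM, and the log2 fold change was 0.21 (SE 0.08, edgeR adjusted p = 0.204).

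The remaining adaptors lay between −0.03 and 0.22 on the log2 fold change scale. Kindlin-2, Fermt2, measured 374 ± 58.2 CPM in NeMO and 329 ± 30.4 CPM in Sham (log2 fold change 0.22, SE 0.11, and 0.10 without NeMO replicate 1). Talin-1, Tln1, measured 630 ± 102 CPM in NeMO and 604 ± 124 CPM in Sham (0.02, SE 0.15), and Tln2 stood at 0.06 (SE 0.11). Ilk, the pseudokinase that anchors the complex, measured 224 ± 39.4 CPM in NeMO and 204 ± 36.5 CPM in Sham (0.10, SE 0.15), and the actin-binding parvin Parva 497 ± 97.7 CPM in NeMO and 495 ± 45.4 CPM in Sham (0.02, SE 0.14). The PINCH adaptors Lims1 and Lims2 stood at 0.21 (SE 0.08) and −0.03 (SE 0.18). The adaptor paxillin, Pxn, had the smallest difference, with 122 to 139 CPM in NeMO and 124 to 139 CPM in Sham (0.003, SE 0.07). Zyxin, Zyx, which gathers at strained actin fibres, measured 161 ± 23.4 CPM in NeMO and 156 ± 23.5 CPM in Sham (0.01, SE 0.12). Exon bases shared with a neighbour on the opposite strand number 2106 for Ilk (Taf10) and 360 for Tln1 (Creb3). Among subunits Itga4 shares 1124 with Cerkl on the opposite strand, and Itgam (3450), Itga10 (1739) and Itga1 (685) share bases with predicted genes on their own strand, so these levels are uncertain.

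The most abundant components per kb were the actin crosslinkers Actn1 and Actn4 and the tensin Tns1. Actn1 measured 1159, 668, 718 and 1080 CPM in NeMO, against 597, 695, 583 and 999 CPM in Sham. NeMO replicates 1 and 4 and Sham replicate 4 were high, and the log2 fold change of 0.30 (SE 0.23) was 0.02 without NeMO replicate 1 and 0.58 without Sham replicate 4. Actn4 measured 623 ± 50.6 CPM in NeMO and 655 ± 101 CPM in Sham (−0.13, SE 0.10). Tns1 measured 3066, 1937, 1565 and 2187 CPM in NeMO, against 2151, 1945, 2256 and 2518 CPM in Sham (−0.02, SE 0.20). The highest and the lowest of the 8 Tns1 values were both NeMO libraries, replicates 1 and 3.

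Summed over the 14 components the level was 8477, 5893, 5776 and 7249 CPM in NeMO and 6005, 6046, 6225 and 7488 CPM in Sham. The 9 smooth muscle markers summed to 54730, 36330, 29630 and 48080 CPM in NeMO and to 34750, 41540, 42150 and 46660 CPM in Sham. NeMO replicates 1 and 4 and Sham replicate 4 were the 3 highest libraries on both sums and NeMO replicate 3 the lowest on both, and the part of muscle content in the component values was not tested.

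Itgb1bp2 was the 1 gene of the set with every NeMO library below every Sham library. It encodes melusin, a striated-muscle protein that binds the beta 1 tail, on chromosome X (positions 101449088 to 101453541, plus strand). It measured 3.15, 3.48, 2.80 and 3.35 CPM in NeMO, against 4.98, 5.58, 5.27 and 4.98 CPM in Sham. These values rest on 96 to 121 reads in NeMO and 131 to 176 reads in Sham. The log2 fold change was −0.73 (SE 0.17, edgeR adjusted p = 0.103, DESeq2 adjusted p = 0.0053), with −0.83 within batch 1 and −0.54 within batch 2. The 7 skeletal muscle markers, read beside it, summed to between 725 and 1265 CPM in NeMO and between 790 and 1061 CPM in Sham, overlapping between the groups. Of the 6 tested, 2 were above 0 and 4 below 0, and their part in the Itgb1bp2 values was not tested. Itgb1bp1, which encodes an inhibitor of beta 1 activation, stood at −0.02 (SE 0.10), and Itgb3bp, which encodes a centromere protein, at −0.24 (SE 0.17). Without NeMO replicate 3 the Itgb3bp value was −0.095, and without Sham replicate 4 it was −0.40.

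Agreement between the batches was uneven across the set. Fitted within each batch, 19 of the 42 genes (45.2%) had the same sign in both, against 65.5% of the 16233 genes fitted in both. The set's median was 0.17 in batch 1 and −0.16 in batch 2, where a single Sham library carries the comparison and is assumed to vary like the NeMO libraries. Over all genes the median was −0.01 in batch 1 and 0.007 in batch 2. The same-signed genes included Itgbl1, Itga5, Itga2, Itga4, Itgav, Vcl, Ptk2, Itgb1, Itgb2 and Itgb1bp2. Among those of opposite sign were Itga7 (0.10 in batch 1 and −0.63 in batch 2), Actn1 (0.58 and −0.18), Itgb3 (0.46 and −0.30) and Itgae (0.79 and −0.35).

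**Figure D5:**
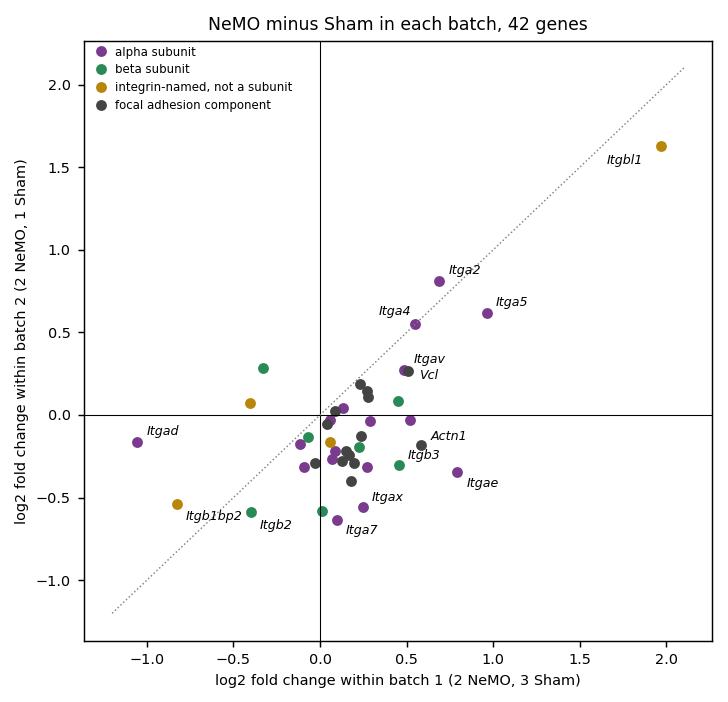
Log2 fold change of the 42 tested genes, NeMO minus Sham, within batch 1 (horizontal) and within batch 2 (vertical), with the dotted line marking equal values and colours the role. Itgbl1 is the highest in both batches, and many genes, such as Actn1 and Itga7, are above 0 in batch 1 and below 0 in batch 2.

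Genes outside the set that work with integrins were counted from lists of ligands and adhesion proteins. Among 44 tested genes of other focal adhesion proteins, edgeR called 0. At an unadjusted p below 0.05 edgeR had 9 higher (20.5%, against 9.38% of all genes tested) and 0 lower (against 9.14%), and DESeq2 called 3 higher (against 3.6%). Their median log2 fold change was 0.04 with 28 above 0, against −0.01 and 48.3% over all genes tested. These values carry no correction for length or GC content, and the median longest transcript was 3847 bases, against 3212 over all genes tested. The adaptor Fblim1 (0.39, SE 0.11) and the docking protein Nedd9 (0.47, SE 0.13) were among those with the smallest p, and edgeR's adjusted p was 0.125 for both. Without NeMO replicate 3 the Nedd9 value was 0.29. Nedd9 did not overlap between the groups, and Fblim1 did.

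The medians of the ligand lists differed by class, with no test between them. No count or median of these lists carries a correction for transcript length or GC content. The median longest transcript was 4235.5 bases for RGD-type and matricellular ligands, 6190 for collagens, 6046 for laminins and 2535 for cell-surface ligands. Over all genes tested it was 3212 bases, so differences between the classes cannot be told apart from an effect of length. For 20 tested RGD-type and matricellular ligands 17 were above 0 with a median of 0.29, for 12 collagen chains all 12 were above 0 with a median of 0.75, and for 11 laminin chains 10 were above 0 with a median of 0.08, against 48.3% above 0 and a median of −0.01 over all genes tested. Summed collagen ligands measured 13630, 11690, 33450 and 20600 CPM in NeMO, against 15030, 11870, 13010 and 12830 CPM in Sham. NeMO replicate 3 was the highest library for all 12 collagen chains, and NeMO replicates 1 and 2 lay within or below the Sham range of the sum. It was also the highest for 10 of the 22 RGD-type and matricellular genes. Their median deviation from each gene's mean log2 CPM was −0.05, −0.20, 0.53 and 0.22 in NeMO replicates 1 to 4. In Sham replicates 1 to 4 it was −0.04, −0.26, −0.24 and −0.02, a range that holds NeMO replicates 1 and 2 or comes close to them. The summed fibroblast markers were also highest in NeMO replicate 3, at 16850 CPM, but the sums share genes. Col1a1 and Col1a2, which gave 5092 and 7287 CPM of the fibroblast sum, belong to both lists. Of the 8 fibroblast markers 6 were highest in that library, while Pi16 (264 CPM) and Dpt (143 CPM) were lowest there. The part of fibroblast content in the collagen values was not tested. None of the ligands of these 3 lists passed edgeR's test. Unadjusted p-values below 0.05 marked 7, 7 and 3 of them as higher (35.0%, 58.3% and 27.3%, against 9.38% of all genes tested) and 0 as lower (9.14%). DESeq2 called 4, 2 and 2 higher, against 3.6% of all genes. Cell-surface ligands such as Icam1 had a median of 0.01 over 11 tested genes, 0 passed edgeR's test, 1 was higher (9.09%, against 9.38%) and 0 were lower by unadjusted p, and DESeq2 called 1 higher. The named ligands were, beside Fn1, Postn (0.63, SE 0.14) and Nov (1.61, SE 0.40) among matricellular genes and Col4a1 (0.82, SE 0.24), Col12a1 (1.04, SE 0.33) and Col4a2 (0.77, SE 0.26) among collagens. For laminins they were Lamc1 (0.34, SE 0.10), Lama3 (0.48, SE 0.16) and Lama2 (0.57, SE 0.19), and for cell-surface ligands Thy1 (0.33, SE 0.09), Jam3 (−0.19, SE 0.11) and Icam4 (−0.51, SE 0.46). Without NeMO replicate 3 the log2 fold change was 0.98 for Nov, 0.65 for Col12a1, 0.32 for Lama3 and 0.31 for Lama2. Leaving out 1 library at a time gave −0.26 to −0.04 for Jam3, and Icam4 was −0.24 without NeMO replicate 1 and −1.07 without Sham replicate 4.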

How the data were processed

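Each deposited file gives 1 library's raw counts, as whole numbers for 38926 symbols. Tools named in the submitters' processing notes are Trimmomatic, STAR, featureCounts and DESeq2, with mm10 as the build. Versions, annotation, strand setting and the handling of multi-mapping reads were not given in the sources used here. Whether counting separated overlapping genes on opposite strands is therefore not known. Per the labels' protocols the libraries were polyA, directional and single-end. The submitted file names carry the batch mark.

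The main fit used edgeR 4.0.16 (R 4.3.3) on the deposited counts: filterByExpr by group (minimum count 10, minimum total 15, 16370 genes kept), TMM scaling, and a robust two-sided quasi-likelihood F-test with batch and group terms, adjusted by Benjamini-Hochberg at 0.05. SE is the size of the fold change over the root of F. DESeq2 1.42.0 and limma 3.58.1 (voom with quality weights) served as alternatives. A level of 1 CPM stands for 27.2 to 36.4 reads, and the biological coefficient of variation was 0.186. All replicate pairs differed by more than sampling noise.

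Genes and lists were chosen with earlier results of these data known. Described in full were genes past the threshold, those without overlap at a mean of at least 1 CPM, the 6 smallest p, the 3 most abundant per kb of each role, and Itgbl1; from other lists, the 3 smallest p, of which 1 is not reported here. Remaining genes are given by role. Positions and lengths are from GENCODE M21 (GRCm38, the same assembly as mm10), which matched 35656 symbols directly and 1774 through a RefSeq synonym. Start sites and sequences are from RefSeq. The length and GC correction, possible for 98.9% of genes tested, used splines with 4 degrees of freedom each.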

Additional observations from a re-analysis of the deposited data

Results flagged for a closer look

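In 4 of 120 groups of 4 libraries, 1 library stood further from the others than Dixon's 95% critical value allows, and chance alone gives about 1 in 20. Itgb5 was high in Sham replicate 4, at 174 CPM against 129 to 134 CPM in the other Sham libraries. Itga4 was high in Sham replicate 1, at 25.7 CPM against 15.7 to 16.9 CPM. In NeMO replicate 3 the matricellular gene Nov was high, at 66.4 CPM against 19.2 to 22.8 CPM, and so was the hemidesmosome chain Itga6, at 157 CPM against 117 to 123 CPM.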

How the results depend on the processing

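The number of genes past the threshold over all genes, 12, was 953 with DESeq2, 106 with limma-voom, 172 without a low-count filter, 7 without the batch term, 0 within batch 1 and 7 within batch 2, and 0 (without NeMO replicate 4 or Sham replicate 4) to 652 (without NeMO replicate 1) when 1 library was left out. The count within the set, 0, was 5 with DESeq2, 2 without the filter (Itgbl1 and Itgav), and 1 (Itgbl1) with limma-voom, RLE scaling, a filter at a mean of 1 CPM or no batch term, and 0 to 2 when 1 library was left out (2 without NeMO replicate 1, and 1 without Sham replicate 2 or 3). The set's median log2 fold change was 0.17 within batch 1, −0.16 within batch 2 and 0.0091 (without Sham replicate 2) to 0.17 with 1 library left out. Leaving out Sham replicate 4 repeats the batch 1 comparison.

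Correlations of same-numbered deviations from the group mean were −0.01, 0.08, 0.04 and 0.32, and those of other pairs ran from −0.25 to 0.25. The deviations were not corrected for batch, so they do not settle whether replicate numbers pair the samples. With the replicate block in place of batch 0 genes passed (0 of the set), and with block and batch 2 (0 of the set). Itgbl1 stood at 1.83 under the block (edgeR adjusted p = 0.0954).

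Log2 fold changes turned sign as follows, and the cause was not tested. Without the batch term they were Lims2 0.010. Under the replicate block they were Lims2 0.013 and Parva −0.011. With block and batch they were Itga10 −0.079, Lims2 0.078 and Itgb1bp1 0.037. Within batch 1 they were Itga11 0.071, Itga7 0.099, Itga8 0.088, Itgax 0.25, Itgb7 0.013, Lims2 0.18, Tns1 0.13 and Itgb1bp1 0.059. Within batch 2 they were Itga1 −0.031, Itga10 −0.030, Itga3 −0.035, Itga9 −0.31, Itgae −0.35, Itgb3 −0.30, Itgb5 −0.20, Itgb6 0.28, Actn1 −0.18, Ilk −0.13, Parva −0.24, Pxn −0.053, Tln1 −0.29, Zyx −0.22, Itgb3bp 0.074 and Icam4 0.47. With the length and GC correction they were Itga9 −0.032, Lims2 0.11, Parva −0.083, Tln1 −0.070, Tln2 −0.068 and Itgb1bp1 0.056. With the replicate block and that correction they were Itga9 −0.045, Lims2 0.12, Parva −0.084, Tln1 −0.021, Tln2 −0.058 and Itgb1bp1 0.068. With limma-voom they were Itga11 0.072, Itga9 −0.038, Itgal 0.050, Itgax 0.081, Parva −0.031 and Pxn −0.0028. Values with 1 library left out crossed 0 over −0.11 to 0.12 for Itga10, −0.29 to 0.14 for Itga11, −0.34 to 0.098 for Itga7, −0.15 to 0.088 for Itga8, −0.26 to 0.27 for Itga9, −0.12 to 0.79 for Itgae, −0.48 to 0.30 for Itgal, −0.66 to 0.28 for Itgax, −0.063 to 0.059 for Itgb1bp1 and −0.0043 to 0.17 for Itgb4. They also did so over −0.071 to 0.22 for Itgb5, −0.41 to 0.097 for Itgb7, −0.56 to 0.19 for Itgb8, −0.27 to 0.18 for Lims2, −0.18 to 0.16 for Parva, −0.051 to 0.039 for Pxn, −0.12 to 0.20 for Tln1, −0.018 to 0.13 for Tln2, −0.36 to 0.15 for Tns1 and −0.039 to 0.15 for Zyx.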
